A study of Mus musculus with 12 samples.

Results

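The vacuolar ATPase (V-ATPase) is a rotary proton pump of lysosomes, endosomes and the Golgi, and 10 of its subunit genes are described here: 6 of the V1 sector (Atp6v1a, Atp6v1b2, Atp6v1c1, Atp6v1d, Atp6v1e1 and Atp6v1h) and 4 of the V0 sector (Atp6v0a1, Atp6v0b, Atp6v0c and Atp6v0d1). They were taken by name, as genes whose RefSeq accession on the array matched 1 of these mouse symbols, and each was represented by its brightest probe. All 10 were found and all 10 passed the filter on dim probes, among 23801 genes tested. The arrays were 12 one-colour Agilent arrays of NIH3T3, an established line of mouse embryonic fibroblasts, grown in 4 experiments per treatment. The groups were 2 µM PP242 (4 arrays), 50 nM rapamycin (4 arrays) and the solvent DMSO (4 arrays), each for 18 h. PP242 is an ATP-competitive inhibitor of the mTOR kinase that reaches mTORC1 as well as mTORC2, and rapamycin inhibits mTORC1 allosterically. The treatment protocol in the labels gives the PP242 dose in millimolar, whereas the design text and the sample characteristics give micromolar. The compounds differ in dose as well as in kind, and 1 dose of each was used.

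The V1 sector sits on the cytosolic face and hydrolyses ATP, which turns a central stalk. The stalk turns the proteolipid ring of the membrane-embedded V0 sector, and each step carries protons into the organelle. The acid interior is needed by lysosomal hydrolases. At the lysosome the pump also touches the Ragulator complex and the Rag GTPases, through which amino acids bring mTORC1 to the membrane. In mammalian cells mTORC1 in turn holds TFEB and related MiT/TFE factors in the cytosol, and these factors bind E-box elements with the core CACGTG in promoters of V-ATPase and other lysosomal genes. The comparisons ask whether the subunit messages differed after either inhibitor.

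Promoters of 7 of the 10 subunits were in the RefSeq table for GRCm38.p6, each covering 250 bases before and 50 after the start. Those of Atp6v1b2, Atp6v1c1 and Atp6v1h were not analysed here. The core CACGTG, which reads the same on both strands, was present in 3 of the 7 genes, against 7.15% of 32851 mouse promoters. Its extension TCACGTGA contains that core, also reads the same on both strands, and was present in 2 of the 7, against 0.974% of promoters. With a further G before and C after it, it was present in 0 of the 7, against 0.326%. The 7 genes had 9 listed promoters. A gene was counted if any of its promoters matched, whereas the percentages count single promoters, so these shares are not fully alike. The 3 promoters with the core are shown, with CACGTG in capitals, together with that of the additional V0 subunit gene Atp6v0e2, which had the largest PP242 to DMSO difference among the subunit genes on the sets of 8 and 6 arrays described below and no CACGTG in this window. They lie at chr8:105566015-105566314 (minus strand, Atp6v0d1), chr16:44139210-44139509 (minus strand, Atp6v1a), chr4:117887280-117887579 (minus strand, Atp6v0b) and chr6:48537319-48537618 (plus strand, Atp6v0e2).
Atp6v0d1: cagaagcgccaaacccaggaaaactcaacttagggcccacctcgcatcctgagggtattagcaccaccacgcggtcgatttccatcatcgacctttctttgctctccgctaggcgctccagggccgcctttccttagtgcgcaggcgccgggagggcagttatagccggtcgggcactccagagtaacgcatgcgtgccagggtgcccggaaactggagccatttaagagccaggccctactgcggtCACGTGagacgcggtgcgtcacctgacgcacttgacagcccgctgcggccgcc
Atp6v1a: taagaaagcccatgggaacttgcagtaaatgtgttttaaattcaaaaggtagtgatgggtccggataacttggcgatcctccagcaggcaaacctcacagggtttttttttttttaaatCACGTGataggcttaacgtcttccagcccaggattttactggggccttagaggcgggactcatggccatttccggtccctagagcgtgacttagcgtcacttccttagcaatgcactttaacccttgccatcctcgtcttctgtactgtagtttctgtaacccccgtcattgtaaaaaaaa
Atp6v0b: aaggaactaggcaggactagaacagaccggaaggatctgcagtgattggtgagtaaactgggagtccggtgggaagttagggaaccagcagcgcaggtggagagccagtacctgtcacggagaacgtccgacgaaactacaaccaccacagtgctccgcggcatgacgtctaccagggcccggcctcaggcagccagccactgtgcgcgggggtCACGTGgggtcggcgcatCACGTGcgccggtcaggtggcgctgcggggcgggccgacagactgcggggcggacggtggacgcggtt
Atp6v0e2: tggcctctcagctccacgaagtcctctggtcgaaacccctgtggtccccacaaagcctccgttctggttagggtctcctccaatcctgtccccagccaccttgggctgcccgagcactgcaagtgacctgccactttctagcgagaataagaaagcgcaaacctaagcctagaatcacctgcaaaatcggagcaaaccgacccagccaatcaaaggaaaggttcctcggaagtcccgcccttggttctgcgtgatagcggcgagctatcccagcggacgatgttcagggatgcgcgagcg
The core begins 3 bases before the start in Atp6v0d1, 131 before it in Atp6v1a, and 36 and 18 before it in Atp6v0b. In Atp6v0d1 and Atp6v1a it lies within TCACGTGA. A match describes these letters only, and binding was not measured. TCACGTGA was also present in 1 of 12 other subunit genes with a listed promoter, Atp6v0e, and its PP242 to DMSO difference was 0.02 on 6 arrays.

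Several arrays stood apart in their range of signal over all probes. The ratio of the 75th to the 25th percentile of signal was 251 to 406 on 8 arrays, where 55.7% to 60.4% of probes were well above background. Dim probes were raised on 4 arrays, with a ratio of 23.5 on PP242 1, 14.3 on PP242 4, 7.05 on rapamycin 3 and 69.5 on DMSO 2. Results are therefore given for all 12 arrays and for those 8 (2 PP242, 3 rapamycin and 3 DMSO). This split uses an array's signal range, but it was chosen with earlier results of these data known. Another set, chosen after the values were seen, holds the 6 arrays with a limma array weight above 1 (PP242 2 and 3, rapamycin 1 and 2, DMSO 1 and 3), which is the 8 without the arrays numbered 4. These 6 were picked for lying close to their group, so their p-values are too small, and n is 2 in each group. Of 10 fibroblast markers 9 were well above background on all 8 arrays. The 4 endothelial markers were well above background on none of the 8. Of 5 epithelial markers 0 were so on all 8 and 3 on none, and Krt8 passed the 8-array filter. Of 4 blood and macrophage markers with a probe 0 were so on all 8 and 1 on none. Csf1r was well above background on 10 of the 12 arrays, which are all those where its spot was kept. Its spots on rapamycin 4 and PP242 4 were left out, and a left-out spot counts here as not above background. Of 5 osteoclast markers 1, Ocstamp, was so on all 8 and 1 on none. No spot was saturated.

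The pooled SD within treatments of the V-ATPase genes was 0.765 on the log2 scale over 12 arrays (median over the 10), above the size of each one's PP242 to DMSO difference (-0.45 to 0.33). On the arrays numbered 4 all 10 subunits were lower than the mean of the same treatment's 2 arrays among the 6, in each of the 3 groups. The median difference of the 10 was -1.44 on PP242 4 (log2, range -1.81 to -1.11), -1.05 on rapamycin 4 (-1.36 to -0.78) and -0.92 on DMSO 4 (-1.12 to -0.43). In bulk RNA a lower level per cell and fewer cells with that level cannot be told apart. The 25% of genes with the brightest signal had a median of -0.55 on PP242 4, -0.04 on rapamycin 4 and -0.02 on DMSO 4, so the shift of the subunits on rapamycin 4 and DMSO 4 was not one of all bright genes. Of these bright genes 90.1% were lower on PP242 4, 54.4% on rapamycin 4 and 53.5% on DMSO 4. Both rapamycin 4 and DMSO 4 were lower than their group in 30.9% of 21637 genes. The 3 arrays lay on 3 different slides.

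The same direction held for all 10 subunits on each of these 3 arrays under the 5 scalings tried. After quantile normalisation the medians were -1.07 on PP242 4, -0.94 on rapamycin 4 and -0.85 on DMSO 4, and in the authors' deposited log2 table -0.94, -0.86 and -0.76 on the same arrays. The other 3 arrays with differing signal were less clear. On PP242 1 and DMSO 2 the subunit median was -0.31, close to that of the brightest 25% of genes (-0.26 on PP242 1 and -0.31 on DMSO 2), and in the deposited table only 5 of the 10 subunits were lower on each. On rapamycin 3 the subunit median was -2.20, against -2.14 for the brightest 25% of genes.

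The 3 arrays numbered 4 also deviated alike across genes. Over the 5410 brightest genes, their deviations correlated with r = 0.79 (PP242 4 with rapamycin 4), 0.73 (PP242 4 with DMSO 4) and 0.87 (rapamycin 4 with DMSO 4), and the 12 other pairs among the 6 arrays outside the closest set gave -0.11 to 0.25. Over all 21637 genes the pairs numbered 4 gave 0.13 to 0.50 and the others 0.03 to 0.95, a range that includes the raised dim probes. Genes are not independent replicates, and each array shares its group mean with another. The labels do not say whether the number 4 marks a shared experiment. Lysosomal genes moved with the subunits there: 29 of 29 were lower on PP242 4 (median -1.47), 28 of 28 on rapamycin 4 (-0.95) and 28 of 29 on DMSO 4 (-0.90). Of the Ragulator and Rag genes 9 of 10 were lower on PP242 4, 10 of 10 on rapamycin 4 and 8 of 10 on DMSO 4, with medians of -0.94, -0.61 and -0.50. Over all genes 43.3% were lower on PP242 4, 47.2% on rapamycin 4 and 46.0% on DMSO 4. Of the brightest genes 90.1%, 54.4% and 53.5% were lower on the same arrays. Most bright genes were thus low on PP242 4, so its counts set these lists apart less than those on the other arrays. Its lysosomal median of -1.47 was still below the -0.55 of the brightest genes. The Ragulator and Rag counts and medians include Rragb. It was well above background on only 4 of the 12 arrays and passed the filter on 12 arrays only. Rragb read -3.86 on PP242 4, -8.60 on rapamycin 4 and -8.49 on DMSO 4, so no direction is given for it. What sets these arrays apart was not tested.

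**Figure D1:**
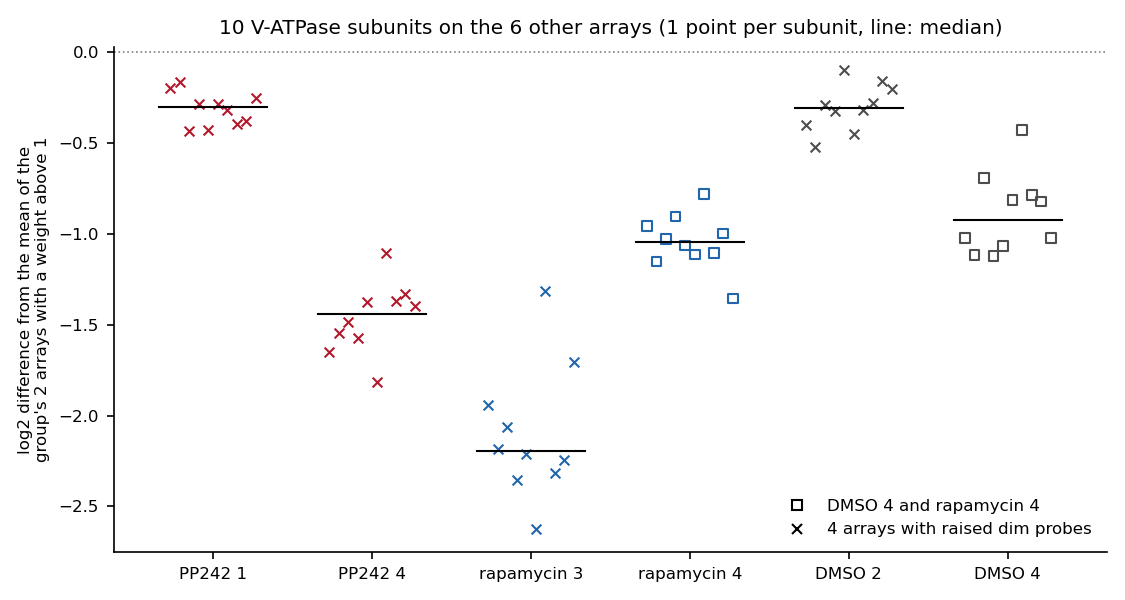
Log2 difference of each of the 10 V-ATPase subunits (points) from the mean of its group's 2 arrays with a weight above 1, for the 6 other arrays, with the median as a line. On PP242 4, rapamycin 4 and DMSO 4 the medians are -1.44, -1.05 and -0.92, and on rapamycin 3, most of whose bright genes were low, -2.20.

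Values below are log2 signals relative to the array's own 75th percentile, so they compare arrays for 1 gene and not genes with each other. Atp6v1a encodes the A subunit of V1, which binds and hydrolyses ATP. It read 1.33, 1.52, 1.53 and -0.12 on PP242 arrays 1 to 4, 1.12, 1.10, -0.83 and 0.15 on rapamycin arrays 1 to 4 and 1.20, 0.88, 1.37 and 0.26 on DMSO arrays 1 to 4. PP242 2 and 3 were the highest of all 12, PP242 1 lay between DMSO 1 and DMSO 3, and each group's array 4 lay far below, together with rapamycin 3. Over 12 arrays PP242 exceeded DMSO by 0.14 ± 0.53 (log2 fold change ± SE, limma adjusted p = 0.913), and over 8 arrays by 0.58 ± 0.42 (adjusted p = 0.351) with groups that did not overlap. Over the 6 closest arrays it averaged 1.53 ± 0.01 with PP242, 1.11 ± 0.01 with rapamycin and 1.28 ± 0.11 with DMSO (SD, n = 2 each). There PP242 was 0.41 ± 0.07 above rapamycin (limma adjusted p = 0.0168), and its 0.24 ± 0.07 above DMSO missed the threshold (adjusted p = 0.0526). Leaving out 1 of the 6 arrays leaves 1 array in its group, which is then assumed to vary like the other groups, so such values are a weak check. The difference from rapamycin no longer passed without PP242 2, PP242 3, rapamycin 1 or rapamycin 2 (adjusted p = 0.0728 to 0.087). The second Atp6v1a probe behaved alike, with PP242 0.34 above DMSO on the 6 arrays.

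Atp6v1b2 encodes the B subunit, which alternates with A in the V1 ring and binds nucleotide without hydrolysing it. It read 0.40, 0.55, 0.57 and -0.99 on PP242 arrays 1 to 4, 0.48, 0.33, -1.78 and -0.75 on rapamycin arrays 1 to 4 and 0.43, -0.04, 0.54 and -0.63 on DMSO arrays 1 to 4. The groups overlapped over 12 arrays, and on the 8 arrays PP242 lay above both other groups. The PP242 to DMSO difference was 0.06 ± 0.56 over 12 arrays, 0.45 ± 0.47 over 8 and 0.08 ± 0.08 over 6, with limma adjusted p of 0.967, 0.529 and 0.465. The 6 arrays leave out DMSO 4, at -0.63, and rapamycin 4, at -0.75.

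The C subunit gene Atp6v1c1 encodes a part of the peripheral stalks that is released when the pump disassembles in yeast. It read 1.85, 2.24, 2.33 and 0.80 on PP242 arrays 1 to 4, 2.22, 2.27, 0.18 and 1.21 on rapamycin arrays 1 to 4 and 2.26, 1.95, 2.22 and 1.54 on DMSO arrays 1 to 4. On the 6 closest arrays all 3 groups fell between 2.22 and 2.33. The difference was 0.04 ± 0.06 for PP242 against DMSO and 0.00 ± 0.06 for rapamycin against DMSO, with limma adjusted p of 0.617 and 0.971.

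Atp6v1d encodes a part of the rotating central stalk. It read 4.20, 4.52, 4.46 and 2.92 on PP242 arrays 1 to 4, 4.38, 4.44, 2.05 and 3.51 on rapamycin arrays 1 to 4 and 4.60, 4.23, 4.51 and 3.43 on DMSO arrays 1 to 4. PP242 2 and 3 lay close to DMSO 1 and 3, and the arrays numbered 4 lay well below. On the 6 arrays PP242 differed from DMSO by -0.06 ± 0.06 and rapamycin from DMSO by -0.14 ± 0.06 (limma adjusted p = 0.456 and 0.206).

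The E and H subunits complete the V1 genes of this set. Atp6v1e1, a peripheral stalk subunit, read 2.21, 2.58, 2.71 and 1.27 on PP242 arrays 1 to 4, 2.73, 2.83, 0.57 and 1.71 on rapamycin arrays 1 to 4 and 2.72, 2.54, 2.56 and 1.57 on DMSO arrays 1 to 4. Its DMSO 4 value stood apart from the other DMSO arrays, at 2.54 to 2.72. Among the 6 arrays PP242 and DMSO both averaged 2.64 and rapamycin averaged 2.78, and no difference passed. Atp6v1h, a V1 subunit that in yeast is needed for the assembled pump to work, read 2.73, 3.03, 3.02 and 1.21 on PP242 arrays 1 to 4, 3.08, 3.22, 0.53 and 2.04 on rapamycin arrays 1 to 4 and 3.05, 2.64, 3.13 and 2.27 on DMSO arrays 1 to 4. Among the 6, its groups averaged 3.02 with PP242, 3.15 with rapamycin and 3.09 with DMSO, and none of the 3 differences passed.

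Of the V0 genes, Atp6v0a1 encodes the large a1 subunit that holds the proton channels beside the ring. It read -0.09, 0.26, 0.19 and -0.88 on PP242 arrays 1 to 4, 0.30, 0.27, -1.04 and -0.50 on rapamycin arrays 1 to 4 and 0.12, -0.26, 0.01 and -0.36 on DMSO arrays 1 to 4. On the 6 arrays both PP242 (0.23 ± 0.05) and rapamycin (0.28 ± 0.02) lay above DMSO (0.07 ± 0.08, SD, n = 2 each), by 0.16 ± 0.07 and 0.22 ± 0.07. Neither passed, with limma adjusted p of 0.115 and 0.11. Its 2 probes disagreed: the dimmer one read 0.57 lower on the log2 scale with PP242 than with DMSO on the same arrays, so no direction is given for this gene.

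Atp6v0b and Atp6v0c encode proteolipids of the rotating ring, the parts that carry the protons. Atp6v0b read 4.35, 4.72, 4.76 and 3.37 on PP242 arrays 1 to 4, 4.83, 4.79, 2.50 and 3.71 on rapamycin arrays 1 to 4 and 4.76, 4.47, 4.75 and 3.97 on DMSO arrays 1 to 4. Its 6 closest arrays lay between 4.72 and 4.83, and PP242 differed from DMSO by -0.01 ± 0.05 (limma adjusted p = 0.848). Atp6v0c read 3.50, 3.88, 3.88 and 2.54 on PP242 arrays 1 to 4, 4.11, 4.08, 1.85 and 3.10 on rapamycin arrays 1 to 4 and 4.20, 3.98, 4.08 and 3.32 on DMSO arrays 1 to 4. PP242 2 and 3 both read 3.88, below every rapamycin and DMSO array outside those numbered 4 and rapamycin 3. On the 6 arrays Atp6v0c fell by 0.27 ± 0.06 on the log2 scale with PP242 against DMSO (1.20-fold lower, limma adjusted p = 0.0265), and by 0.22 ± 0.06 against rapamycin without passing (adjusted p = 0.0565). Over 8 arrays the PP242 to DMSO difference was 0.01 ± 0.39 and over 12 arrays -0.45 ± 0.52, neither past the threshold. The 6-array call against DMSO ended when any 1 array other than DMSO 3 was left out (adjusted p = 0.0624 to 0.0977).

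Atp6v0d1 encodes the d subunit, which couples the central stalk to the ring. It read 3.96, 4.19, 4.24 and 2.82 on PP242 arrays 1 to 4, 4.09, 4.08, 2.37 and 2.72 on rapamycin arrays 1 to 4 and 3.79, 3.57, 3.78 and 2.76 on DMSO arrays 1 to 4. Outside rapamycin 3 and the arrays numbered 4, the PP242 and rapamycin arrays all lay above the DMSO arrays, 3.96 to 4.24 and 4.08 to 4.09 against 3.57 to 3.79. On the 6 arrays the gene rose with both inhibitors: PP242 averaged 4.22 ± 0.04, rapamycin 4.08 ± 0.01 and DMSO 3.78 ± 0.01 (SD, n = 2 each). The differences from DMSO were 0.44 ± 0.05 with PP242 (1.35-fold, limma adjusted p = 0.00381) and 0.30 ± 0.05 with rapamycin (1.23-fold, adjusted p = 0.0422), and PP242 exceeded rapamycin by 0.14 ± 0.05 (adjusted p = 0.111). Without each of the 6 arrays in turn, with 1 array left in a group, the adjusted p was 0.0157 to 0.0258 for PP242 and 0.0831 to 0.187 for rapamycin, whose call ended each time. With slide as a block neither passed (0.42, adjusted p = 0.0616 for PP242, and 0.28, adjusted p = 0.223 for rapamycin). Over 8 arrays PP242 exceeded DMSO by 0.78 ± 0.50 (adjusted p = 0.3) without overlap, and over 12 arrays by 0.33 ± 0.49 (adjusted p = 0.794).

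**Figure D2:**
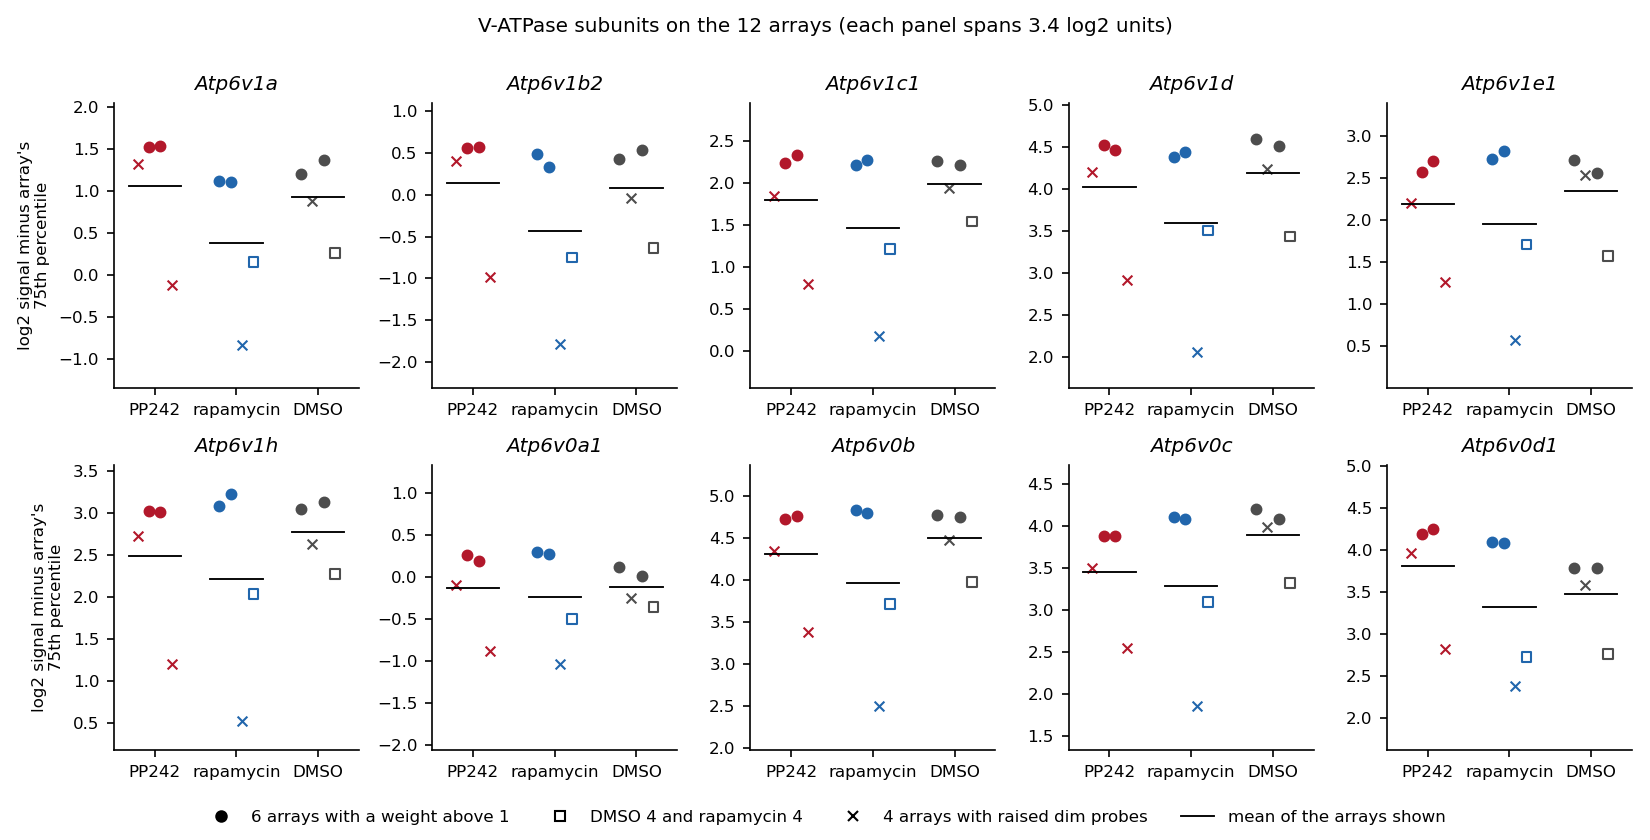
Log2 signal relative to the array's 75th percentile for the 10 subunits (1 panel each, every panel 3.4 log2 units high), with the PP242, rapamycin and DMSO arrays from left to right. Filled circles are the 6 closest arrays, open squares rapamycin 4 and DMSO 4, crosses the 4 arrays with raised dim probes, and the line is the mean of the group; in Atp6v0d1 the filled circles of PP242 (4.19 and 4.24) and rapamycin (4.08 and 4.09) lie above those of DMSO (3.78 and 3.79).

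Across the set, PP242 against DMSO passed for 0 of the 10 subunits on 12 arrays, where 0.441% of all genes passed, and 0 of the 10 had an unadjusted limma p under 0.05, where 9.52% of all genes did. Their log2 fold changes ran from -0.45 (Atp6v0c) to 0.33 (Atp6v0d1), with a median of -0.16, against 0.34 for all genes tested. That all-gene median includes raised dim probes. The median difference from the group's closest arrays was 0.08 on PP242 1, 0.33 on PP242 4 and -0.18 on DMSO 2 over all genes. Over the brightest genes it was -0.26, -0.55 and -0.31 on the same arrays, so the contrast is not one with genes of like signal. On 8 arrays again 0 of 10 passed, where 28.3% of all genes did, and 0 had an unadjusted p under 0.05, where 39.8% did. By the brightest probes all 10 differences were then above 0, where 48.9% of all genes were, with a median of 0.31 against -0.01 for all genes. In 4 subunits (Atp6v1a, Atp6v1b2, Atp6v0a1 and Atp6v0d1) the PP242 arrays lay above all DMSO arrays, a count to be read against 30.3% of all genes. For Atp6v0a1 this holds for its brighter probe, and the dimmer one gave -0.43 on the 8 arrays. On 6 arrays 1 subunit passed as higher (Atp6v0d1), where 26% of all genes did, and 1 as lower (Atp6v0c), where 23.3% did. Together these are 2 of 10, against 49.3% of all genes. The median of the 10 was 0.02, and that of all genes 0.00.

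The 8-array median of PP242 against DMSO rested on DMSO 4, and was 0.02 without it, against 0.31 with it. When arrays numbered 4 were instead kept and fitted as a block, an alternative chosen after the values were seen, 3 of 10 subunits passed for PP242 against DMSO on the 8 arrays, where 46.7% of all genes did. These were Atp6v1a (0.25, limma adjusted p = 0.034) and Atp6v0d1 (0.38, adjusted p = 0.0219) as higher and Atp6v0c (-0.30, adjusted p = 0.0232) as lower. The 8 arrays hold no PP242 array numbered 4, so the block is estimated from rapamycin 4 and DMSO 4. With that block 0 of 10 passed for rapamycin against DMSO, where 10.8% of all genes did, and 1 of 10 (Atp6v1a) for PP242 against rapamycin, where 34.5% did. With the same block on 12 arrays 0 of 10 passed.

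Rapamycin against DMSO passed for 0 of 10 subunits on 12 arrays, where 0% of all genes passed, and for 0 of 10 on 8 arrays, where 0.188% did. No subunit had an unadjusted limma p under 0.05 in either, where 2.03% and 13.7% of all genes did. On 12 arrays all 10 differences were below 0 (-0.61 to -0.12, median -0.53, against 0.15 for all genes), where 56.1% of all genes were above 0. Dim probes were raised on rapamycin 3. Its median difference from the group's closest arrays was 0.60 over all genes and -2.14 over the brightest genes, of which 99.2% were lower. The subunit median there was -2.20, so the contrast with all genes cannot by itself be read as particular to the subunits. The low arrays of the rapamycin group were rapamycin 3 and 4. On 8 arrays they ran from -0.15 to 0.19 with a median of -0.06, and in 0 of 10 did the groups separate, where 8.45% of all genes separated as higher and 10.6% as lower. That median was -0.33 without DMSO 4 and 0.31 without rapamycin 4. On 6 arrays 1 of 10 passed, Atp6v0d1, where 11.2% of all genes did. Within slide 1, rapamycin 1 exceeded the mean of DMSO 1 and DMSO 4 by a median of 0.42, and DMSO 1 alone by 0.02. The median was 0.32 on slide 2 (rapamycin 2 against DMSO 2) and -1.03 on slide 3 on the 8 arrays (rapamycin 4 against DMSO 3), or -1.63 with rapamycin 3 as well.

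PP242 against rapamycin passed for 0 of 10 subunits on 12 arrays, where 0% of all genes passed, and for 0 of 10 on 8 arrays, where 15.5% did, with 0 at an unadjusted limma p under 0.05 in both, where 3.94% and 30.3% of all genes were. On 8 arrays all 10 differences were above 0 by the brightest probes, where 51.8% of all genes were (0.11 to 0.73, median 0.34 against 0.02 for all genes), and Atp6v1a, Atp6v1b2, Atp6v1d and Atp6v0d1 did not overlap, where 28.7% of all genes lay that way. Without rapamycin 4 the median was -0.01. On 6 arrays it was also -0.01 and 1 of 10 passed, Atp6v1a, where 35.9% of all genes did. Both inhibitors were compared with the same DMSO arrays.

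**Figure D3:**
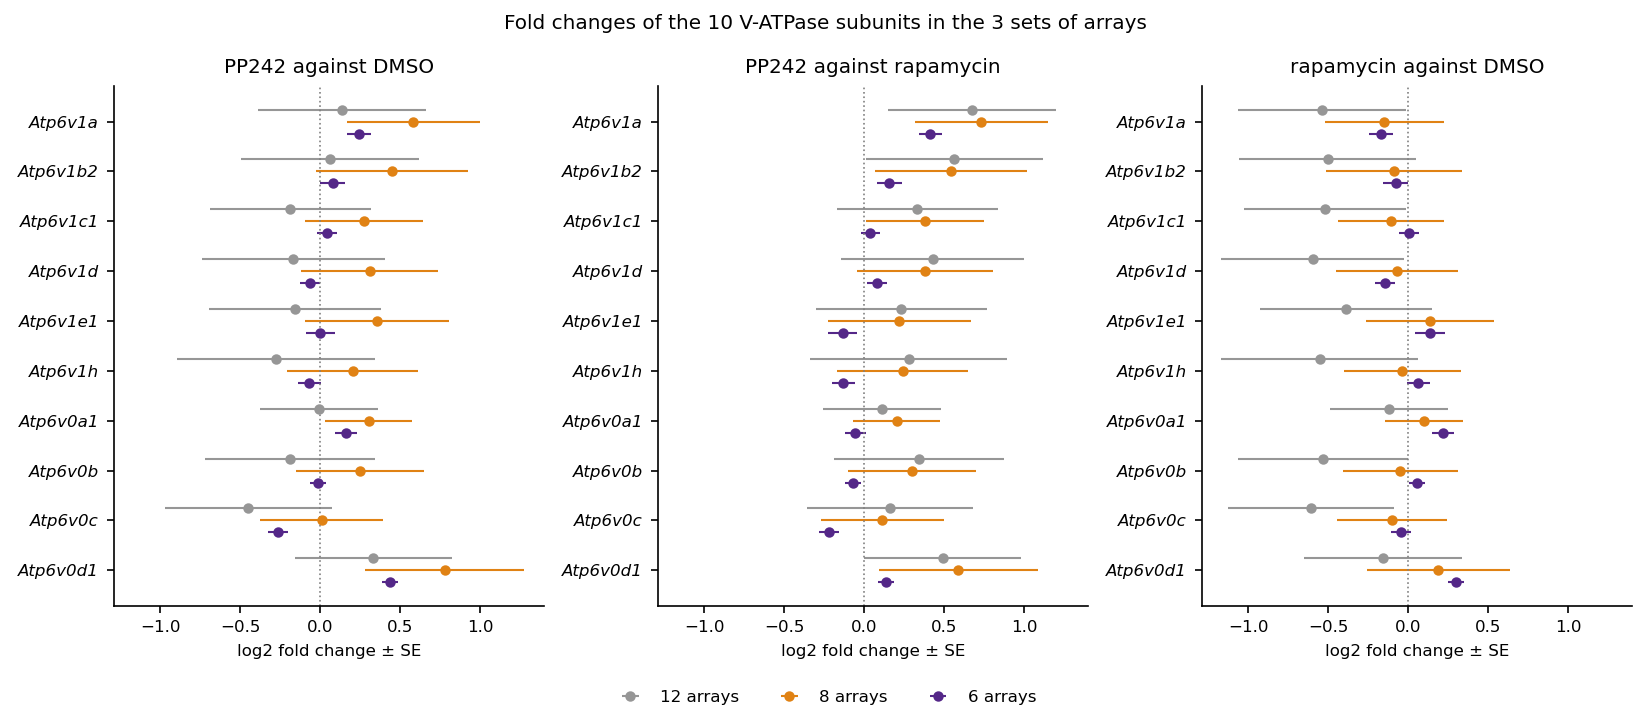
Log2 fold change with its standard error for the 10 subunits in the 3 comparisons, from 12 arrays (grey), 8 arrays (orange) and 6 arrays (purple). The 8-array values of PP242 against DMSO lie above 0 for the brightest probes of all 10 subunits (0.01 to 0.78) with wide errors, and the 6-array values lie at or near 0 except those of Atp6v0d1 (0.44), Atp6v1a (0.24), Atp6v0a1 (0.16) and Atp6v0c (-0.27).

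Within slides the sign depended on which arrays a slide held. For PP242 against DMSO the subunit median was 0.41 on slide 1, where DMSO 4 is 1 of the 2 DMSO arrays, and -0.03 there with DMSO 1 alone. It was -0.39 on slide 2 and -0.33 on slide 3, whose arrays of these groups include PP242 4, PP242 1 and DMSO 2. For PP242 against rapamycin the within-slide medians on 8 arrays were -0.01 on slide 1 and -0.01 on slide 2, and on 12 arrays -0.72 on slide 2 and 1.33 on slide 3. Each of these rests on 1 or 2 arrays per group and has no test.

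Among the other subunits, the clearest response belonged to Atp6v0e2, which encodes an isoform of the small hydrophobic V0 subunit e. It read 2.06, 2.58, 2.55 and 1.11 on PP242 arrays 1 to 4, 1.14, 1.19 and -0.16 on rapamycin arrays 1 to 3, and 1.02, 0.76, 0.86 and 0.29 on DMSO arrays 1 to 4. The spot on rapamycin 4 was marked as an outlier by the scanner software and left out. All 4 PP242 arrays lay above all 4 DMSO arrays, where 9.79% of all genes did, with PP242 4 again the lowest of its group. Atp6v0e2 rose by 1.85 ± 0.23 with PP242 against DMSO on 8 arrays (3.60-fold, n = 2 and 3, limma adjusted p = 0.00354) and by 1.40 ± 0.25 against rapamycin (2.64-fold, adjusted p = 0.0192). On 12 arrays the PP242 to DMSO difference was 1.34 ± 0.43 (adjusted p = 0.271) and did not pass. With slide as a block on 8 arrays neither difference passed (1.91, adjusted p = 0.0526, and 1.40, adjusted p = 0.118). The difference from rapamycin also ended without PP242 2, PP242 3, rapamycin 1 or rapamycin 2 (adjusted p = 0.0737 to 0.117). Its second probe gave 1.82 against DMSO on the 8 arrays. Rapamycin differed from DMSO by 0.44 ± 0.23 on 8 arrays (adjusted p = 0.468), from 2 rapamycin and 3 DMSO arrays, and by 0.23 without DMSO 4 (adjusted p = 0.346).

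Of the 15 other subunit and accessory genes listed, 10 were tested on 8 and on 6 arrays and 12 on 12 arrays. Atp6v1b1, Atp6v1c2 and Atp6v0d2 failed the filter on every set, and Atp6v1g3 and Atp6v0a4 passed it on 12 arrays only, through the arrays with raised dim probes. On 8 arrays 1 of 10 passed for PP242 against DMSO (Atp6v0e2), where 28.3% of all genes did, 0 for rapamycin against DMSO (0.188%) and 1 for PP242 against rapamycin (Atp6v0e2 again, 15.5%). On 6 arrays 3 rose with PP242 against DMSO (Atp6v0e2, Atp6v1f and Atp6v1g2) and 2 fell (Atp6v0a2 and Tcirg1), shares near the 26% and 23.3% of all genes that did. Atp6v1f, a central stalk subunit, rose by 0.40 ± 0.09 (limma adjusted p = 0.0195), and Atp6v1g2, a peripheral stalk isoform, by 0.27 ± 0.08 (adjusted p = 0.0474). Atp6v1g2 was dim, at -2.16 and -2.06 on PP242 2 and 3 and -2.31 and -2.45 on DMSO 1 and 3. It was raised on rapamycin 3 (-0.40) and PP242 4 (-1.37). Its call was not followed with slide as a block or with arrays left out.

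The a subunits of V0 exist as alternative isoforms that place the pump in different membranes. Tcirg1, the a3 isoform known from osteoclasts and lysosomes, read 1.39, 1.73, 1.76 and 0.67 on PP242 arrays 1 to 4, 2.05, 2.12, 0.20 and 0.95 on rapamycin arrays 1 to 4 and 2.20, 1.96, 2.18 and 0.96 on DMSO arrays 1 to 4. PP242 2 and 3 lay below the rapamycin and DMSO arrays outside rapamycin 3 and those numbered 4. On the 6 arrays Tcirg1 fell by 0.44 ± 0.05 on the log2 scale with PP242 against DMSO (1.36-fold lower, limma adjusted p = 0.0043) and by 0.34 ± 0.05 against rapamycin (adjusted p = 0.0137). Atp6v0a2, the Golgi isoform, read -0.82, -0.63, -0.77 and -1.40 on PP242 arrays 1 to 4, -0.34, -0.37, -1.71 and -0.36 on rapamycin arrays 1 to 4 and -0.20, -0.62, -0.29 and -0.78 on DMSO arrays 1 to 4. It fell by 0.46 ± 0.08 with PP242 against DMSO on the 6 arrays (adjusted p = 0.00955) and by 0.34 ± 0.08 against rapamycin (adjusted p = 0.0288). On 8 arrays the PP242 to DMSO differences were -0.04 ± 0.49 for Tcirg1 and -0.28 ± 0.18 for Atp6v0a2, and neither passed. With slide as a block on the 6 arrays the calls against DMSO ended (adjusted p = 0.0517 for Tcirg1, 0.063 for Atp6v0a2 and 0.133 for Atp6v1f). The calls of Tcirg1 and Atp6v0a2 against rapamycin ended without PP242 2, PP242 3, rapamycin 1 or rapamycin 2 (0.0525 to 0.127), and that of Atp6v1f against DMSO ended without DMSO 3 or PP242 2 (0.0765 and 0.0739).

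The remaining tested subunits did not pass for PP242 against DMSO on the 6 arrays. Their differences were 0.01 ± 0.07 for Atp6v1g1, 0.02 ± 0.10 for Atp6v0e and -0.01 ± 0.07 for the accessory subunit Atp6ap1. The dim Atp6v1e2 gave -0.40 ± 0.56, with a wide error. Atp6ap2, the accessory subunit also known as the prorenin receptor, differed by -0.34 ± 0.11 (limma adjusted p = 0.0561). Atp6ap2 read 1.61 on PP242 4, 1.77 on rapamycin 4 and 1.99 on DMSO 4, against 3.37 to 3.99 on the DMSO arrays 1 to 3. It was low on the arrays numbered 4, as the 10 subunits were.

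**Figure D4:**
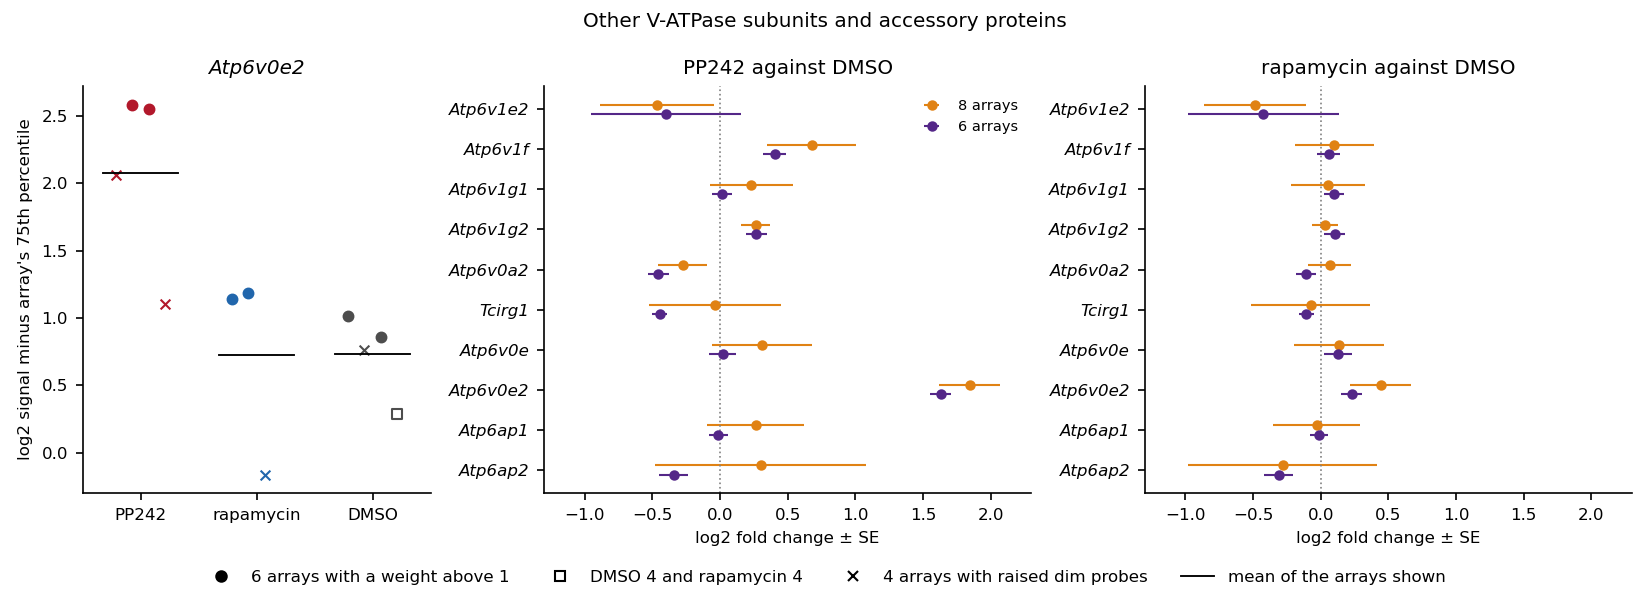
Left, log2 signal of Atp6v0e2 relative to the 75th percentile on each array, PP242, rapamycin and DMSO from left to right; PP242 lies at 1.11 to 2.58 and DMSO at 0.29 to 1.02. Right, log2 fold change with its standard error of the 10 other subunits tested, for PP242 against DMSO and rapamycin against DMSO on 8 and 6 arrays; Atp6v0e2 has the largest value with PP242 (1.85 on 8 arrays).

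Genes that assemble the pump or use it were followed in 4 more lists. None of the 5 tested assembly and RAVE genes passed for PP242 against DMSO on 8 arrays (28.3% of all genes did, by limma), and 3 had an unadjusted p under 0.05 (39.8% of all genes). Vma21, a chaperone of V0 assembly, differed by -0.36 ± 0.12 (adjusted p = 0.0602) and Ccdc115, another assembly factor, by -0.22 ± 0.09 (adjusted p = 0.103). On 6 arrays 2 of the 5 fell, Vma21 and Tmem199 (Tmem199 chosen after its value was seen), by 0.44 and 0.45 on the log2 scale (limma adjusted p = 0.00607 and 0.00547), where 23.3% of all genes fell. Vma21 read 2.17 on PP242 4, against 2.57 and 2.52 on PP242 2 and 3. It read 2.78 on rapamycin 4, against 2.94 and 2.91 on rapamycin 1 and 2, and 2.75 on DMSO 4, against 3.03 and 2.94 on DMSO 1 and 3. By this brightest of its 3 probes, the array numbered 4 was thus below the 6 closest arrays of its group in all 3 groups. The second probe read -0.16 on rapamycin 4, above rapamycin 1 (-0.20) and 2 (-0.39). For PP242 against DMSO on 8 arrays the second probe gave -0.39 and the third -0.06. The assembly list as a whole shifted less on the arrays numbered 4 than the subunits, with medians of -0.38 on PP242 4, -0.15 on rapamycin 4 and -0.14 on DMSO 4.

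Of 9 Ragulator and Rag genes tested on 8 arrays, 1 fell and none rose with PP242 against DMSO, where 28.3% of all genes were called. Rraga, the Rag GTPase A, fell by 0.34 ± 0.10 on the log2 scale (limma adjusted p = 0.0409), and the scaffold genes Lamtor1 and Lamtor3 differed by 0.06 ± 0.27 and 0.11 ± 0.26 (adjusted p = 0.889 and 0.792). Of 5 MiT/TFE genes and their regulators, Tfeb rose by 0.52 ± 0.13 against DMSO (adjusted p = 0.03) and by 0.58 ± 0.13 against rapamycin (adjusted p = 0.0331), from a dim probe at -3.57 with PP242, -4.15 with rapamycin and -4.09 with DMSO. The Tfeb calls ended with slide as a block (adjusted p = 0.126 and 0.14), and without PP242 2 (0.145 and 0.176) or PP242 3 (0.132 and 0.166). Mitf and Tfe3, 2 further MiT/TFE factors chosen after their values were seen, differed from DMSO by 0.66 ± 0.56 and -0.34 ± 0.17 on 8 arrays (adjusted p = 0.434 and 0.188). On 6 arrays Mitf rose by 1.07 ± 0.10 (adjusted p = 0.00187) and Tfe3 fell by 0.21 ± 0.06 on the log2 scale (adjusted p = 0.0496). With the arrays numbered 4 as a block on 8 arrays Mitf rose by 1.11 with PP242 (adjusted p = 0.000705) and by 0.48 with rapamycin (adjusted p = 0.0305). The second Mitf probe gave 0.11 for PP242 against DMSO on 6 arrays and -0.09 on 8, so its probes disagree. Flcn and Fnip1, regulators of these factors, differed from DMSO by 0.31 ± 0.39 and 0.54 ± 0.55. Of 29 lysosomal genes 2 rose and 0 fell with PP242 against DMSO on 8 arrays, where 28.3% of all genes were called. Sgsh, which degrades heparan sulphate, rose by 1.10 ± 0.27 (2.15-fold, limma adjusted p = 0.0257). Glb1, the lysosomal beta-galactosidase, rose by 0.41 ± 0.12 (limma adjusted p = 0.0428). The calls of Rraga, Sgsh and Glb1 were not followed with slide as a block or with arrays left out. The abundant Ctsl and Cd63 differed by -0.04 ± 0.16 and 0.10 ± 0.32. With rapamycin against DMSO none of these 4 lists had a passing gene on 8 arrays, where 0.188% of all genes passed. On 6 arrays 13 of 29 lysosomal genes rose and 2 fell with PP242 against DMSO, where 26% of all genes rose and 23.3% fell. With rapamycin against DMSO on the same 6 arrays 3 of the 29 rose and 0 fell, where 11.2% of all genes were called. Of the 29, 23 were then above 0, with a median of 0.16 against 0.00 for all genes.

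The 10 subunits were low together on DMSO 4 and rapamycin 4. Over the 8 arrays each correlated at 0.94 to 0.99 with the mean of the others (n = 8 arrays). The centred mean of the 10 was -0.68 on DMSO 4 and -0.80 on rapamycin 4, and 0.21 to 0.28 on the other arrays. These r therefore rest largely on those 2 arrays, on both of which 30.9% of 21637 genes were lower. On the 6 closest arrays 5 subunits were above and 5 below 0 for PP242 against DMSO. The genes whose pattern was most like the mean of the 10, of 11828 named genes compared over the 8 arrays, were 4930486L24Rik (r = 0.999), Abcg2 (0.999) and Lyz1 (0.998). Over 12 arrays their r was 0.370, 0.945 and 0.0929, so 1 of the 3, Abcg2, stayed close when the arrays with raised dim probes were included.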

How the data were processed

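The 10 subunits and all other lists were chosen with earlier results of these data known. Gene expression was measured on 12 arrays. The deposited scanner files hold linear intensity per spot, per the file headers, and the processed intensity used here had been background-subtracted and detrended by Agilent Feature Extraction (version 10.5.1.1 per the file headers, 10.1 per the submitters' processing notes). The authors' deposited series table holds log2 values, with column medians of 8.54 to 8.56, and was used as an alternative only: its tool and centring are not given in the sources used here. RNA was amplified with a whole transcriptome kit and labelled with Cy3, per the labels' protocols.

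Of 45018 spots 1639 were controls. Control spots and outlier-flagged spots were left out, and spots of a probe were averaged over 41174 probes, of which 24844 had 1 symbol through RefSeq accessions, 0 several and 16330 an accession only. Values are log2 intensity minus the array's 75th percentile. A probe was kept where it was well above background on 4 or more of 12, 3 of 8 or 2 of 6 arrays, and the brightest probe stood for a gene. Limma 3.58.1 in R 4.3.3 (lmFit and eBayes) fitted the 3 groups together, with two-sided tests, Benjamini-Hochberg adjustment over all genes and a threshold of 0.05, and was checked on simulated data. With 12 arrays, their number limits the precision. The 8 arrays have a 75th to 25th percentile ratio above 100, a split also chosen with earlier results of these data known. The 6 arrays have an array weight above 1 and were chosen after the values were seen, as were the block of arrays numbered 4, the 9 arrays not numbered 4 and weights estimated gene by gene.

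Named genes were the 10 subunits and every other tested subunit. From each further list up to 4 genes that passed on 8 arrays and up to 2 that did not, by level, were named, and the 3 genes most alike by correlation. Groups and replicate numbers came from the sample titles. The numbers were checked as pairs: same-numbered arrays correlated above 0.1 in 4 of 12 pairs on 12 arrays, 3 of 4 on 8 and 2 of 3 on 6. Arrays of different number did so in 22 of 36 pairs on 12 arrays, 5 of 17 on 8 and 4 of 9 on 6. In a group of 2 arrays the deviations mirror each other, and on 12 arrays the raised dim probes enter. This check therefore cannot decide whether the numbers mark pairs, and the main fits did not take them as pairs. Alternatives were quantile normalisation, median centring, normexp with an offset of 50, the deposited table, 2 other filters, the mean of probes, fits of 2 groups, slide or replicate block, array weights and leaving out each array. Python 3.11.15, numpy 2.4.6, pandas 2.3.3, matplotlib 3.10.9 and the R package data.table (version 1.17.8) were used.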

Additional observations from a re-analysis of the deposited data

Results flagged for a closer look

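In 4 of 32 groups of 4 arrays, 1 array lay far from the other 3 for a subunit, by the gap to its nearest neighbour against the range of the group. Chance gives about 1 in 20 such groups if they are independent. These are not, since the genes were read on the same arrays and were low together on those numbered 4. The count therefore cannot be set against chance. All 4 were arrays numbered 4. Atp6v1a read -0.12 on PP242 4, and 1.33 to 1.53 on the other PP242 arrays. Atp6v1b2 read -0.99 there, and 0.40 to 0.57 on the others. Atp6v1h read 1.21 there, and 2.73 to 3.03 on the others. Atp6v1e1 read 1.57 on DMSO 4, and 2.54 to 2.72 on the other DMSO arrays.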

How the results depend on the processing

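The calls of single subunits depended on the set of arrays. With the 6 closest arrays, in place of 12 or 8, the number of the 10 subunits called was 2 for PP242 against DMSO, 1 for rapamycin against DMSO and 1 for PP242 against rapamycin, where it was 0 in each. Array weights on 12 arrays called 1, 0 and 1 in the same order of comparisons, but their estimate stopped before it converged. Weights estimated gene by gene, added after the data were seen, called 0 in each comparison and were above 1 on the same 6 arrays. With the arrays numbered 4 as a block on 8 arrays, the PP242 against DMSO count was 3 and the PP242 against rapamycin count 1. Many signs differed between sets without a call: of the 10 subunits, 7 were below 0 for PP242 against DMSO on 12 arrays, 0 on 8 and 5 on 6, the numbers for rapamycin against DMSO were 10, 7 and 4, and those for PP242 against rapamycin 0, 0 and 5. Where 1 of the values compared had passed, the sign differed for Atp6v0d1 for rapamycin against DMSO (0.30 on 6 arrays), Atp6v0c for PP242 against DMSO (-0.27 on 6 arrays, -0.30 with that block), Tcirg1 for PP242 against rapamycin (-0.34 on 6 arrays, -0.35 with that block) and, on 6 arrays, Atp6v0a1 for PP242 against DMSO (-0.21 with the mean of its probes). The median of the 10 for PP242 against DMSO was -1.06 on 12 arrays centred on their median, and on 6 arrays 0.093 after quantile normalisation, -0.039 with median centring and 0.079 in the deposited table. On 6 arrays the PP242 against DMSO count was 1 with normexp, with no filter and with the 2 groups alone, 4 with the mean of probes and 0 with slide as a block. The rapamycin against DMSO count was 0 with median centring, normexp, the deposited table, no filter, 2 groups alone or slide as a block. The PP242 against rapamycin count was 2 after quantile normalisation, in the deposited table and with probes well above background on every array, and 0 with median centring or no filter. With the replicate number as a block (replicate block) 0 subunits were called in each comparison on 12, 8 and 6 arrays. Leaving out 1 array at a time, which on 6 arrays leaves a group of 1, gave 0 calls on 12 and 8 arrays, and on 6 arrays 1 to 3, 0 to 0 and 0 to 1 in the same order of comparisons. The medians then ran from -0.35 to 0.18, -0.80 to -0.05 and -0.12 to 0.69 on 12 arrays, 0.02 to 0.46, -0.33 to 0.31 and -0.01 to 0.51 on 8, and -0.019 to 0.075, -0.01 to 0.03 and -0.01 to 0.00 on 6. Over all genes, PP242 against DMSO called 0.441% on 12 arrays, 28.3% on 8 and 49.3% on 6. The median SE of that comparison over all genes was 0.507, 0.181 and 0.0915 on these sets. The sets differ in the number of arrays and in which arrays they hold, and the 6 were picked for lying close to their group. Causes were not tested. Normexp on the mean spot signal was not run and used the median spot signal instead.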
